A study of Mus musculus with 4 samples.

Results

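Class-switched antibody genes were compared between wild type and ADAR1 knockout mouse bone marrow cells sorted with an early B cell gate. The 7 genes were the heavy chain constant regions Ighg3, Ighg1, Ighg2b, Ighg2c, Ighe and Igha, and Jchain. They were taken by symbol from the 55573 Ensembl genes listed for each library, and all 7 were found. The choice was made with their lower levels in the knockout libraries in view, so those levels are given here as description and are not tested. The libraries came from C57BL/6 mice aged 8 to 12 weeks, from bone marrow cells sorted as Fr.C+C', a gate in the Hardy scheme for cells between the pro-B and the small pre-B stage. There were 2 wild type libraries (WT 1, WT 2) and 2 libraries labelled ADAR1 KO (KO 1, KO 2). The labels do not say how the Adar gene was deleted, in which cells, or whether mice were pooled. Whether the 2 libraries of a genotype stem from different mice is likewise unstated, so p-values measure the spread between libraries, which may be technical.

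An antibody heavy chain is first made as IgM, from the constant region Ighm, and as IgD, from Ighd. After a mature B cell meets antigen, a recombination removes Ighm and joins the V region to a downstream constant gene, which is class switching. Switched transcripts are most abundant in plasma cells, which also make the joining chain (J chain) that links IgA and IgM into polymers. Cells of the pro-B and pre-B stages come before this step. A constant gene can also be read from its own upstream promoter without a V region, as a germline transcript, and a value per gene does not separate such RNA from switched mRNA.

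The 6 switched constant genes lie in one row on chromosome 12 (GRCm38, GENCODE M21, minus strand). In the direction of transcription they follow the end of Ighm at 57.3 kb for Ighg3 (ENSMUSG00000076615, 113356224 to 113361232) and 88.0 kb for Ighg1 (ENSMUSG00000076614, 113325240 to 113330523). Ighg2b (ENSMUSG00000076613, 113302965 to 113307933) follows at 110.6 kb and Ighg2c (ENSMUSG00000076612, 113285325 to 113288932) at 129.6 kb. Ighe (ENSMUSG00000087642, 113269260 to 113273248) follows at 145.3 kb and Igha (ENSMUSG00000095079, 113254830 to 113260236) at 158.3 kb. Jchain (ENSMUSG00000067149) is a protein-coding gene on chromosome 5, 88519809 to 88527891, outside the antibody loci.

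The 4 IgG genes are close relatives, so the stretch that sets each apart is shown: the hinge exon (exon 2 of the secreted transcript), which encodes the flexible link between the arms and the stem of the antibody. Capitals mark in-frame TGT and TGC codons, the codons of cysteine, whose bonds pair the heavy chains. The exons are given 5′ to 3′ on the minus strand of GRCm38.
Ighg3 (chr12:113360529-113360576): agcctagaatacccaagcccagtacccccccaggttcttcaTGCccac
Ighg1 (chr12:113329844-113329882): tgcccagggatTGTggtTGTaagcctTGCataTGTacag
Ighg2b (chr12:113307261-113307326): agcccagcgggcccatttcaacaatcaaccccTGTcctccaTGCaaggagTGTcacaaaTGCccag
Ighg2c (chr12:113288263-113288325): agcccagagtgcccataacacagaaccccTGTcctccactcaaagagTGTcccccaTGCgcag
The hinge exons were 48, 39, 66 and 63 nt long and held 1, 4, 4 and 3 such codons in Ighg3, Ighg1, Ighg2b and Ighg2c.

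Over the whole secreted coding sequence, Ighg2b and Ighg2c were identical at 85.6% of aligned positions. The other IgG pairs were identical at 73.9% to 75.5%, and Igha matched each IgG gene at 47.6% to 49.8%. The longest stretch without a difference between Ighg2b and Ighg2c was 78 nt, in exon 3 of both, and it is shown because a read inside it could come from either gene.
Ighg2b (chr12:113306869-113306946) and Ighg2c (chr12:113287869-113287946): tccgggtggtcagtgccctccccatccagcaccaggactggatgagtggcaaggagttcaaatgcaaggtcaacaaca
Of the 50-nt windows of the coding sequence, 5.85% in Ighg2b and 5.86% in Ighg2c also occurred in the other gene. None of the windows of Ighg3, Ighg1 or Igha occurred in another of these genes or in Ighm (0 of 940, 922 and 982 windows). The labels do not state how reads matching several genes were counted, so the split between Ighg2b and Ighg2c carries that uncertainty and the other values carry less of it.

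For 1 of the 7 genes, Jchain, the RefSeq promoter table (GRCm38.p6) had an entry, and its 250 bases upstream of the start are shown because Jchain is the member outside the heavy chain locus. They lie at chr5:88527898-88528147 on the minus strand, and capitals mark E-boxes (CANNTG), the letters bound by factors such as E2A of the B lineage.
Jchain: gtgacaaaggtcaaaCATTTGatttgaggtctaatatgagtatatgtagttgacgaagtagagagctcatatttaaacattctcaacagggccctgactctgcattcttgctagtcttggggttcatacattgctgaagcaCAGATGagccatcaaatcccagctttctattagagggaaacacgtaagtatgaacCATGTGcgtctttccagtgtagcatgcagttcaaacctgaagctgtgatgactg
It held 3 E-boxes, and 66.2% of 32851 promoter entries of the same length held at least 1. The letters GAGGAA (a core bound by the factor PU.1), TATTTTTA (a core of the MEF2 type) and TATAAA (the TATA box) had 0 matches on either strand, against 23.25%, 2.45% and 12.4% of promoters with a match. With no match of these, none overlapped an E-box, whose letters read the same on both strands.

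Each library held between 15123000 and 16416000 fragments assigned to genes, recovered from the steps in its low FPKM values (fragments per kilobase of exon, scaled to the library's total). With such steps, 1 fragment of Igha was worth 0.0237 FPKM in WT 1. Fragment numbers below are estimates from these steps, and intervals on them cover counting error at 95% and not the spread between mice. Adar, the targeted gene, had 15.04 FPKM in WT 1, 14.62 in WT 2, 15.19 in KO 1 and 16.79 in KO 2. A gene-level value cannot show whether single exons are missing and so is no check of the labels, and KO below means the libraries labelled so. KO 2 stood apart from the other libraries in its marker levels. The summed B-lineage markers were at 1434 FPKM there against 2386 to 2905, and the summed neutrophil markers at 74721 FPKM against 26099 to 36626. In every library, wild type included, the neutrophil sum was thus far above the B-lineage sum. The sort label therefore does not mean that the RNA came from early B cells alone.

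Igha, the constant region of IgA, the antibody of mucosal surfaces, was at 304.55 FPKM in WT 1 and 216.96 in WT 2, and at 0.33 in KO 1 and 0.20 in KO 2. These values rest on about 12841, 9502, 14 and 8 fragments. It was the 107th and 146th most abundant gene of the wild type libraries, and its group means were 260.8 ± 61.9 and 0.265 ± 0.0919 FPKM (SD, n = 2). The wild type level per fragment assigned to genes was 976-fold the KO level (counting interval 644 to 1558). The groups did not overlap, and both KO libraries were near the level of a few fragments.

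Jchain, which encodes the J chain of polymeric IgA and IgM, was at 105.85 and 91.45 FPKM in WT 1 and WT 2 and at 0.25 and 0.45 in KO 1 and KO 2. The estimates were 4210 and 3779 fragments against 10 and 17. Wild type was 284-fold higher per fragment assigned to genes (195 to 432). KO 2 was the higher of the KO libraries for Jchain and the lower for Igha, and in neither case did the ratio of KO 1 to KO 2 leave counting error (0.562, interval 0.23 to 1.30, and 1.67, interval 0.654 to 4.60).

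Among the IgG genes, Ighg2c, the constant region of IgG2c, was at 64.43 and 43.64 FPKM in wild type and at 0 and 0.15 FPKM in KO 1 and KO 2. That is 1350 and 950 fragments against 0 and 3, a ratio of 737 (252 to 3575). Ighg1, the main IgG of responses driven by interleukin 4, was at 21.29 and 18.59 FPKM against 0.02 and 0.08. It had 872 and 791 fragments against 1 and 3, a ratio of 399.5 (156 to 1468). In both genes the KO libraries were at or near 0 and every wild type value was above them.

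Ighg2b, the constant region of IgG2b, was the exception in level. It was at 137.13 and 114.84 FPKM in WT 1 and WT 2 and at 10.23 and 5.56 FPKM in KO 1 and KO 2, from 5803, 5049, 434 and 225 fragments. Means were 126.0 ± 15.8 and 7.90 ± 3.30 FPKM (SD, n = 2), and wild type was 15.8-fold higher per fragment assigned to genes (14.6 to 17.1). Of the switched constant genes it alone was above 1 FPKM in a KO library. Set against Ighm in the same library, Ighg2b was at 9.90% and 6.67% of the Ighm FPKM in wild type and at 0.889% and 1.11% in KO 1 and KO 2.

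The remaining constant genes were low everywhere. Ighg3, an IgG made without T cell help, was at 1.13 and 4.05 FPKM in WT 1 and WT 2 (45 and 167 fragments) and at 0 in both KO libraries. Against a floor of 3 fragments per KO library (0.0754 and 0.0790 FPKM) it was at least 33.6-fold lower in KO. That bound uses the wild type mean. It was at least 14.6-fold from WT 1 alone and at least 52.5-fold from WT 2 alone. Ighe, the constant region of IgE, the antibody of allergy and worm infection, was at 0.80 and 0.15 FPKM in wild type and at 0.04 in both KO libraries. Its 20 and 4 fragments against 1 and 1 give a ratio of 11.5 with a wide counting interval of 2.86 to 101. Ighe was below the filter of a mean of 1 FPKM in either group, so 6 of the 7 genes entered the fit over all genes.

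**Figure D1:**
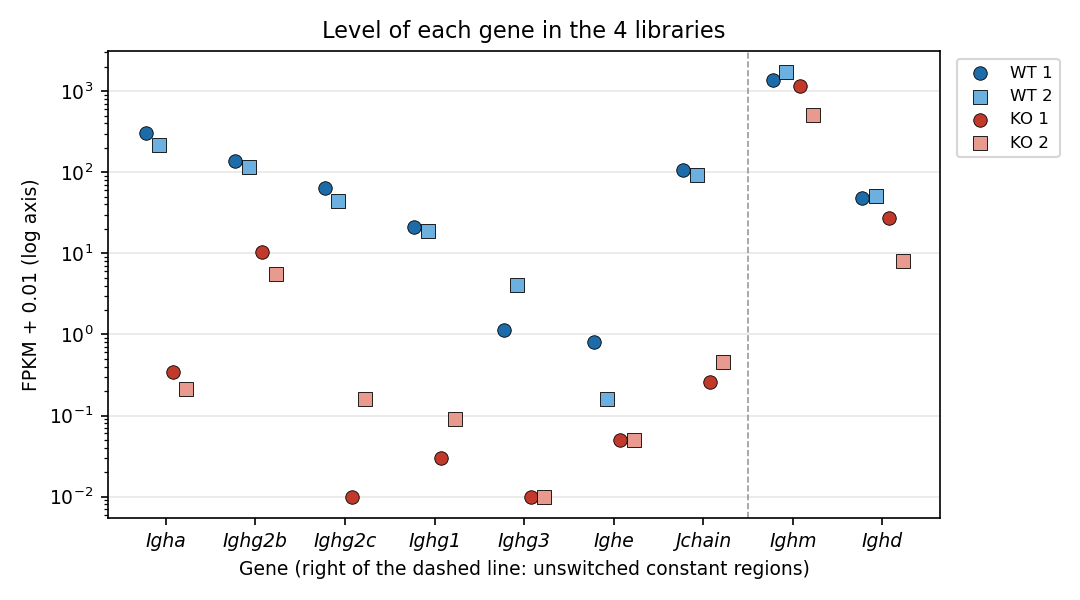
FPKM plus 0.01 on a log axis for each of the 7 genes and for Ighm and Ighd, with 1 point per library (circles for replicate 1, squares for replicate 2). Points at 0.01 are values of 0. The KO points of Igha and Jchain sit between 0.20 and 0.45 FPKM, while those of Ighg2b sit at 10.23 and 5.56 FPKM.

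All 7 genes were lower in both KO libraries than in either wild type library. Across the 13281 genes tested, 31.7% had both KO libraries below both wild type libraries and 19.7% had both above. At an adjusted p under 0.05 by limma, a linear model with pooled variance, 0.203% were called lower and 0% higher. The genes were chosen from this same contrast, so nothing is read from setting the count against those shares. These are bulk samples, in which fewer cells of a type and less RNA per cell cannot be told apart. The B-lineage and neutrophil sums above moved in the same libraries, KO 2 most. The erythroid sum was at 1268 and 737 FPKM in wild type and at 329 and 624 in KO 1 and KO 2, lowest in KO 1. The part of these cells in the members' levels was not tested. In KO 1 the B-lineage sum was 2386 FPKM against 2832 and 2905 in wild type. The B-lineage list shares no gene with the plasma cell list used below, so its sum does not measure plasma cells.

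In wild type the order of levels was the same in both libraries: Igha, Ighg2b, Jchain, Ighg2c, Ighg1, Ighg3 and Ighe. The ranges of neighbours in that order did not overlap, with 2 libraries for each. In KO, Ighg2b was highest in both libraries. Igha and Jchain, at 0.20 to 0.33 and 0.25 to 0.45 FPKM, overlapped, as did Ighg1, Ighg2c and Ighe at 0 to 0.15 FPKM.

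**Figure D2:**
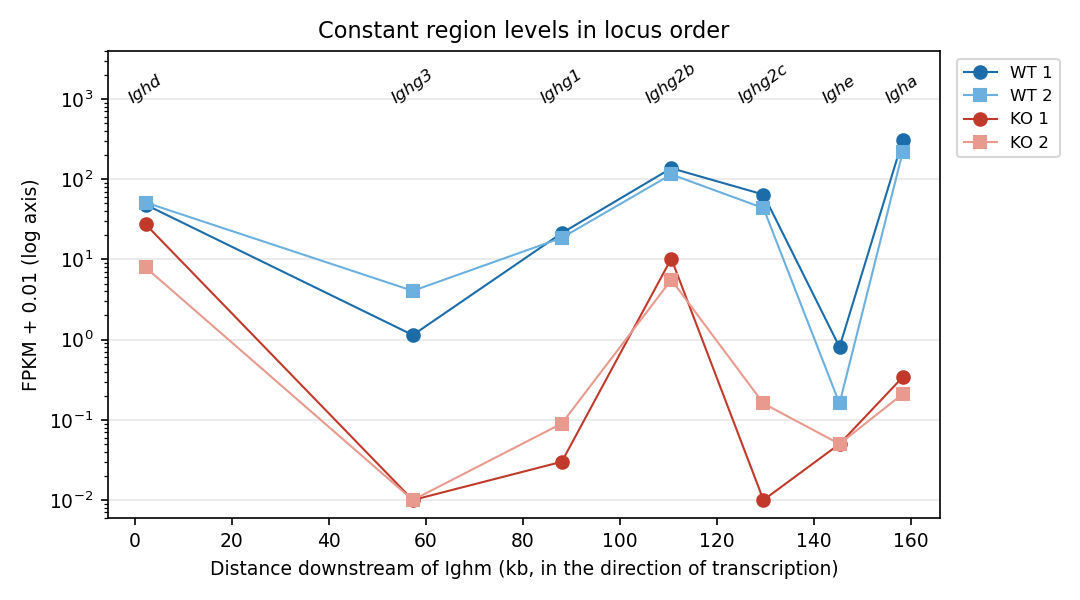
FPKM plus 0.01 on a log axis against the distance of each constant gene downstream of Ighm in kb, with 1 line per library. Levels did not follow distance: the nearest switched gene, Ighg3, was at 1.13 and 4.05 FPKM in wild type and the farthest, Igha, at 304.55 and 216.96 FPKM, and among the switched genes the KO libraries are highest at Ighg2b.

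Position in the locus did not order the levels. Ighd, 2.23 kb after Ighm and made by alternative splicing with it, was at 48.16 and 51.23 FPKM in wild type and at 27.35 and 7.93 in KO 1 and KO 2. Ighm itself was at 1385.13 and 1721.93 FPKM against 1151.36 and 502.56. Their log2 changes of -1.67 and -1.02 missed the threshold (adjusted p = 0.370 and 0.435, limma). Without KO 1 both passed (adjusted p = 0.0426 and 0.0490, limma). That setting sets KO 2, the library that stood apart, alone against wild type. Its spread comes from the wild type pair, and KO 2 is assumed to vary alike. Over all genes it called 2.88% lower and 4.21% higher, so calls without KO 1 below compare KO 2 with wild type and not the groups.

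Summed over the 6 switched constant genes, levels were 529.3 and 398.2 FPKM in wild type and 10.6 and 6.03 FPKM in KO. The sum can include germline transcripts, so it does not measure switched mRNA alone. Group means of the sum were 463.8 ± 92.7 FPKM for wild type and 8.33 ± 3.25 FPKM for KO (SD, n = 2). KO was thus 55.7-fold lower, or -5.80 on the log2 scale. Without KO 2 that value was -5.45 and without KO 1 it was -6.27. With Ighg2b left out the sums were 392.2 and 283.4 FPKM for wild type and 0.390 and 0.470 FPKM for KO 1 and KO 2. The 6 genes together equalled 38.2% and 23.1% of the Ighm level in wild type and 0.922% and 1.20% in KO.

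The makeup of this sum also differed between the libraries. Igha gave 57.5% and 54.5% of the summed switched FPKM in WT 1 and WT 2, Ighg2b 25.9% and 28.8%, Ighg2c 12.2% and 10.96%, and Ighg1 4.02% and 4.67%. In KO 1 and KO 2 Ighg2b gave 96.3% and 92.2%, and Igha 3.11% and 3.32%. Counted as fragments, the Ighg2b share was 434 of 450 in KO 1 (96.4%, exact 95% interval 94.3 to 98.0) and 225 of 240 in KO 2 (93.8%, 89.9 to 96.5). In wild type it was 27.7% (27.1 to 28.3) and 30.7% (30.0 to 31.4). Igha gave 61.3% and 57.7% of fragments in WT 1 and WT 2, Ighg2c 6.45% and 5.77%, and Ighg1 4.17% and 4.80%. FPKM divides by exon length, which was 1326 nt for Ighg2c and 2592 to 2678 nt for Ighg1, Igha and Ighg2b. The Ighg2c share is therefore larger in FPKM than in fragments. Jchain stood at 34.8 and 42.2 FPKM per 100 FPKM of Igha in wild type and at 75.8 and 225 in KO 1 and KO 2, where it rests on 10 and 17 Jchain fragments and 14 and 8 of Igha.

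**Figure D3:**
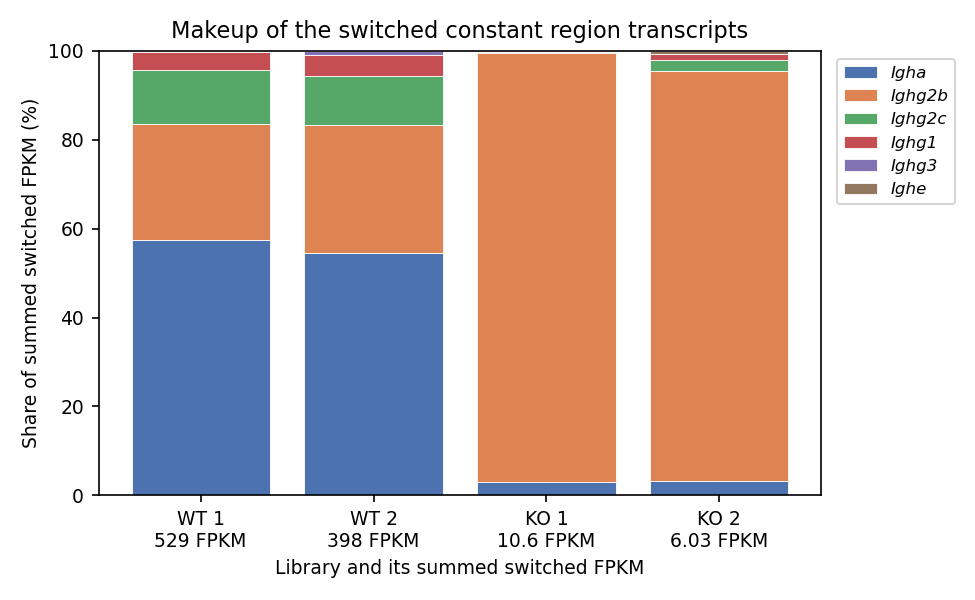
Stacked bars of the share (%) of each constant gene in the summed FPKM of the 6 switched constant genes, 1 bar per library, with the sum under each bar. Igha is the largest part in both wild type libraries (57.5% and 54.5%), and Ighg2b fills 96.3% and 92.2% of the far smaller KO sums.

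The wild type libraries differed from each other beyond counting error, and not in one direction. Per fragment assigned to genes, WT 1 was above WT 2 for Igha (ratio 1.40, interval 1.37 to 1.44) and Ighg2c (1.48, 1.36 to 1.61). The same held for Ighg2b (1.19, 1.15 to 1.24), Jchain (1.16, 1.11 to 1.21) and Ighg1 (1.15, 1.04 to 1.26). Ighe also was higher in WT 1 (5.19, 1.74 to 20.9), on 20 and 4 fragments. Ighg3 went the other way (0.28, 0.197 to 0.391), as did Ighm (0.804, 0.794 to 0.815). These ratios compare 2 libraries and not conditions.

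In KO, the ratio of KO 1 to KO 2 could be measured well for Ighg2b only. It was 1.84 (1.56 to 2.17), beside 2.29 (2.25 to 2.34) for Ighm, 3.45 (2.97 to 4.01) for Ighd and 2.81 (2.61 to 3.04) for Igkc, the kappa light chain constant region. All of these were higher in KO 1, the library with the higher B-lineage sum. Igkc had 1727.77 and 1697.43 FPKM in wild type, 312.56 in KO 1 and 111.12 in KO 2, and the lambda region Iglc1 had 91.86 and 41.59 against 4.31 and 2.91. Iglc2 had 42.91 and 61.51 FPKM against 9.08 and 3.67, and Iglc3 had 26.46 and 28.57 against 23.74 and 15.07. None of the light chain regions passed with all libraries (adjusted p = 0.187, 0.0701, 0.126 and 0.441, limma). Iglc1 passed without WT 2 (adjusted p = 0.0274, limma), with the filter at 5 FPKM (0.0343) and with the replicate block (0.00307). Igkc, Iglc2 and Iglc3 passed without KO 1 (adjusted p = 0.0426, 0.0426 and 0.0490, limma). With the crossed block Iglc1, Igkc and Iglc2 passed (adjusted p = 0.00139, 0.0105 and 0.000464, limma). That block pairs WT 1 with KO 2 and WT 2 with KO 1, which no label states. It was added after the data were seen, so nothing is read from its calls. Of the 11 genes tested from the list of unswitched constant regions and receptor partners, 0 passed with all libraries and the median was -1.02. An unadjusted p under 0.05 (limma) was found for 5 of them and for 12.5% of all genes tested.

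Plasma cell genes were then examined, from a list of 30 without the 7 genes above. The list is not confined to plasma cells. Prg2 is also in the basophil, mast cell and eosinophil list used below, and Ccr9 in the plasmacytoid dendritic list. Of 27 tested, 0 passed in either direction (limma; also 0 with voom), 4 had an unadjusted p under 0.05 (12.5% of all genes tested did), and 18 were negative. The list median was -0.37 on the log2(FPKM + 1) scale, against -0.09 and 61.7% negative over all genes tested. Both KO libraries were below both wild type libraries for 13 of the 27 (31.7% of all genes) and above both for 6. On KO 2 alone, 5 passed as lower (Pou2af1, Sdc1, Slamf7, Tnfrsf17 and Txndc5) and 2 as higher (Cd9 and Ly6c2).

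Tnfrsf17, which encodes the plasma cell survival receptor BCMA, was at 2.17 and 1.79 FPKM in wild type (28 and 24 fragments) and at 0 in both KO libraries. Against the 3-fragment floor that is at least 8.32-fold lower, and the fitted log2 change of -1.57 ± 0.22 (SE) did not pass (adjusted p = 0.129, limma). Derl3, an endoplasmic reticulum degradation factor of secretory cells, was at 4.86 and 3.33 against 2.09 and 0.90 FPKM. Tent5c, a poly(A) polymerase, was at 4.13 and 4.38 against 2.27 and 2.23 FPKM, and Ccr10, a homing receptor of IgA plasma cells, at 1.21 and 0.95 against 0.48 and 0.27. In each, the higher KO value was under the lower wild type value, and none passed (adjusted p = 0.347, 0.296 and 0.398, limma). Tnfrsf17 and Ccr10 entered the fit only through their wild type means (1.98 and 1.08 FPKM, against 0 and 0.375 in KO).

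Factors that define plasma cells did not move as one. In bulk samples their RNA can also come from other cells, so their levels do not measure plasma cell content. Xbp1, the factor of the secretory programme, was at 45.61 and 39.29 FPKM in wild type and 47.08 and 55.40 in KO. Irf4 was at 79.29 and 112.38 against 76.56 and 29.04 FPKM, and Sdc1, the plasma cell surface protein CD138, at 11.11 and 12.78 against 9.70 and 3.96. Mzb1, a chaperone of antibody assembly, was at 39.22 and 37.55 against 50.87 and 28.14 FPKM. Prdm1, which encodes Blimp-1 and drives plasma cell differentiation, was below the filter at 0.78 and 0.95 against 0.57 and 0.63 FPKM. None of the 4 tested passed (adjusted p = 0.510, 0.451, 0.441 and 0.977, limma), and for Irf4 and Sdc1 the KO 1 value lay close to wild type.

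Genes of the endoplasmic reticulum and secretion were near the level of all genes. Of 38 tested, 0 passed and 0 had an unadjusted p under 0.05 (limma; voom also 0), 23 were negative, and the median was -0.06. Sec63, part of the protein entry channel, was at 18.03 and 19.37 against 15.85 and 13.04 FPKM, and Sec61g, a channel subunit, at 4.16 and 3.14 against 2.64 and 2.39. Sec11a, of the signal peptidase, was at 14.18 and 12.95 against 11.60 and 10.86 FPKM. Ero1l, an oxidase of disulfide bond formation, had 14.15 and 12.76 FPKM in wild type, 15.12 in KO 1 and 27.73 in KO 2. On KO 2 alone, Herpud1, Syvn1 and Ero1l passed.

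Class switch machinery showed no call. Of 38 genes 37 were found and 36 tested, 0 passed and 0 had an unadjusted p under 0.05 (limma; voom also 0), 32 were negative, and the median was -0.25. Lig4, the ligase of end joining, was at 12.91 and 16.65 against 11.60 and 6.56 FPKM, and Xrcc5, which encodes the Ku80 end-binding protein, at 11.20 and 10.61 against 9.11 and 7.86. Hmces was at 14.80 and 16.19 against 13.48 and 8.46 FPKM, and Rad50, of the break-sensing MRN complex, at 19.06 and 20.43 against 17.03 and 15. Many genes of this list also repair DNA in dividing early B cells. On KO 2 alone, Msh6 and Parp1 passed as lower.

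Signals that direct switching and markers of germinal centre or memory cells held no called gene. Of 25 switch signalling genes 0 passed (limma; voom also 0), 2 had an unadjusted p under 0.05, 17 were positive and the median was 0.10. Il4ra, the interleukin 4 receptor chain used in switching to IgG1 and IgE, was at 6.39 and 7.34 against 9.18 and 13.58 FPKM, and Ifngr2, of the interferon gamma receptor, at 13.34 and 13.21 against 16.39 and 19.59. Myd88 was at 20.76 and 19.30 against 24.34 and 34.09 FPKM, and Ikzf3, which encodes Aiolos, at 23.16 and 27.17 against 19.39 and 9.27. Of 17 germinal centre and memory genes 10 were tested and 0 passed (limma, voom also 0), with 3 at an unadjusted p under 0.05 and a median of 0.21. Over all genes tested, 12.5% had such an unadjusted p. Basp1, Fas and Bcl6 were higher in both KO libraries than in wild type, with Bcl6 at 5.91 and 6.63 against 8.48 and 11.36 FPKM (adjusted p = 0.370, limma). Bach2, a factor that holds back plasma cell differentiation, had 41.40 and 55.54 FPKM in wild type, 36.65 in KO 1 and 14.06 in KO 2. On KO 2 alone, Bach2, Ikzf3 and Tnfrsf13c passed as lower.

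Among 13 receptors of antibodies, 11 were tested and 1 passed. Fcer2a, which encodes the IgE receptor CD23 of mature B cells, was at 4.03 and 3.82 FPKM in wild type and fell to 0.22 and 0.17 (log2 change -2.04 ± 0.19 SE, adjusted p = 0.0476, limma). It did not pass without WT 1, WT 2 or KO 2 (adjusted p = 0.160, 0.125 and 0.213, limma), nor with the replicate block (0.0505). The call was lost in 10 of the 13 alternatives run, with adjusted p from 0.00438 to 0.325 by limma over all 13. The gene entered the fit only through its wild type mean (3.93 against 0.195 FPKM in KO). Fcmr, the IgM receptor, had 16.66 and 19.02 FPKM in wild type, 2.80 in KO 1 and 0.30 in KO 2. Fcmr missed the threshold (adjusted p = 0.203, limma). It met the threshold with the crossed block (adjusted p = 0.00261, limma), which was added after the data were seen and is no support. Fcgr3 was at 42.18 and 38.88 against 54.84 and 107.57 FPKM and Lgals3 at 42.68 and 38.06 against 64.73 and 105.34, both genes of myeloid cells, and the neutrophil sum was highest in the same library. Fcgr3, Fcgr4 and Lgals3 passed as higher on KO 2 alone. The list median was 0.26, with 5 genes at an unadjusted p under 0.05 (12.5% of all genes tested, limma).

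**Figure D4:**
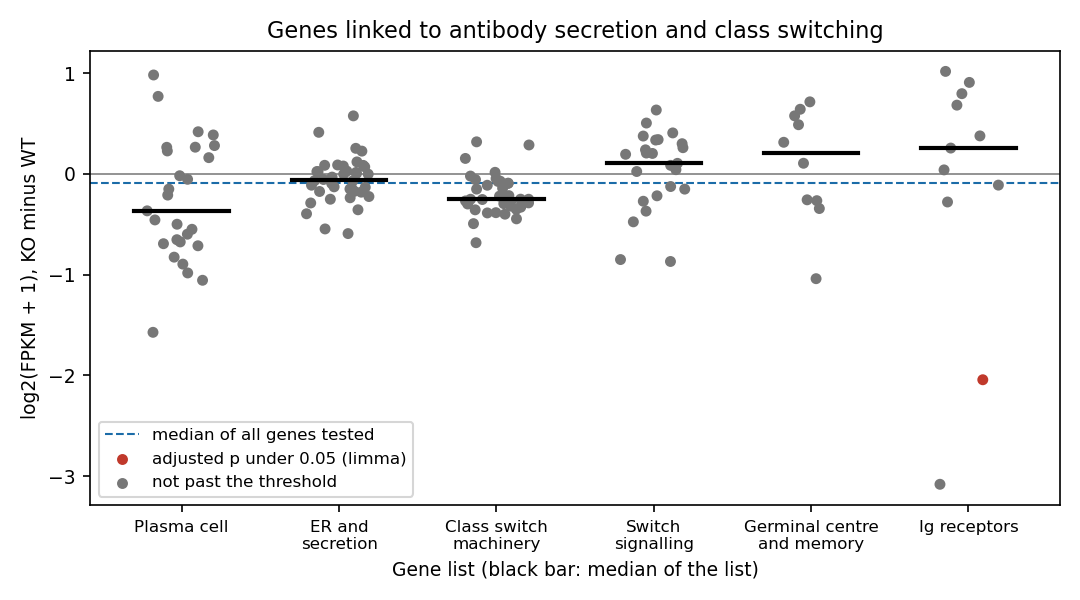
Log2(FPKM + 1) change, KO minus WT, of each tested gene in 6 lists, with a black bar at the median of each list and a dashed line at the median of all genes tested (-0.09). The only gene past the threshold in these lists is Fcer2a, at -2.04. Among these 6 lists the plasma cell list has the lowest median, at -0.37. Some lists not drawn had lower medians: -1.02 for unswitched constant regions and partners, -0.86 for erythroid, -0.63 for mature B cell and -0.44 for B-lineage genes. The rest not drawn had higher ones.

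Markers of other cells in the sort were measured beside these genes. Over all genes tested, 31.7% lay below both wild type libraries in KO, 19.7% lay above both, and 12.5% had an unadjusted p under 0.05 (limma). Of 20 mature B cell genes tested, 1 passed (Fcer2a), 12 lay below both wild type libraries in KO and the median was -0.63. Of 16 B-lineage genes 0 passed, 5 lay below and the median was -0.44. All 18 neutrophil genes were positive with a median of 0.97, and 0 passed (9 at an unadjusted p under 0.05, limma; 16 above both wild type libraries). Medians were -0.24 for 12 monocyte and macrophage genes, 0.24 for 9 natural killer genes, 0.01 for 9 T cell genes and 0.42 for 9 plasmacytoid dendritic genes. They were -0.86 for 9 erythroid genes, 7 of them below both wild type libraries, and 0.16 for 9 basophil, mast cell and eosinophil genes, with 0 called in each of these lists. No marker of the B-lineage, neutrophil, T cell or erythroid lists was at 0 in both KO libraries.

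The genes closest to the switched sum in pattern were sought by turning each tested gene into its share of its own FPKM in the 4 libraries and taking the Euclidean distance over them. This measure rests on 4 libraries and on the contrast that picked the members, so it is a description. The nearest immunoglobulin genes were Igkv1-117 (distance 0.0166), Igkv4-53 (0.0227) and Ighv1-34 (0.0323). Igkv1-117, a kappa V segment, was at 157.58 and 112.93 FPKM in wild type and at 2.97 and 1.64 in KO. For Jchain the nearest were Igkv6-15 (0.0221), Igkv5-48 (0.0297) and Igkv4-53 (0.0309).

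Of genes outside the antibody loci, Tnfrsf17 was the nearest to Jchain (distance 0.0168) and, at 0.0352, the second nearest to the switched sum. Fcer2a was also among the 8 nearest to each (0.0553 and 0.0855). No other protein-coding gene was among the 8 nearest to either. The rest were Gm16024 and Gm8666, near the switched sum, and short RNA genes with 1 to 4 fragments in a wild type library: Gm22403, Mir7028 and Mir7090 for both, Gm24366 for the switched sum, and Scarna3a, Snord59a and Mir669n for Jchain. Gm16024 and Gm8666 had 6 to 8 fragments in a wild type library.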

How the data were processed

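Per the file headers, the authors deposited 1 file of FPKM values per library for 55573 Ensembl genes, with 2 decimals. The submitters' processing notes name mm9, while the values fit exon lengths of a GRCm38 annotation (below), and this difference was not resolved. The sources used here do not give the aligner or counter. Symbols (found for 55394 identifiers), exon lengths and coordinates come from GENCODE M21 (GRCm38). FPKM times exon length fell on whole multiples of 1 fragment in 99.4% to 99.5% of low values (tolerance 0.15 fragments, 30% by chance), which gave the fragments per library. No 2 libraries of a group were copies of each other: their counts gave a chi-square of 8.41 (WT) and 61.4 (KO) per degree of freedom. The test was limma 3.58.1, run in R 4.3.3. It used log2(FPKM + 1), a variance trend and every gene whose WT or KO mean reached 1 FPKM, with Benjamini-Hochberg adjustment and a threshold of 0.05. The log2 scale understates changes of low genes. With 2 libraries against 2, no exact permutation test was run. Intervals on fragments are exact binomial or Poisson (SciPy 1.17.1), and alignments used Biopython 1.88. Tested on simulated data, the fit recovered most changed genes, but its calls held more false ones than the threshold implies. The simulation gave all libraries the same spread, while the KO pair here differed more than the WT pair. Its outcome may thus not carry over to this contrast. Named genes are the 7 members, Adar, the unswitched constant regions, up to 4 genes of each of 6 lists with the smallest p and every called gene, defining plasma cell genes, and the nearest patterns; 1 gene under this rule is not reported here; genes named for passing without KO 1 were chosen after their values were seen. The members and the 16 lists were chosen with earlier results of these data known.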

Additional observations from a re-analysis of the deposited data

How the results depend on the processing

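Over all genes, 27 were called lower and 0 higher (856 higher and 800 lower at an unadjusted p under 0.05, limma). The lower count was 15 with a pseudocount of 0.1, 0 with no filter on low values, 1 with antigen receptor segments left out, and 9 with voom on estimated fragments. Leaving out the segments also takes the switched constant genes out of the test, so that count is not comparable with 27. The higher count was 1 with a filter at 5 FPKM. With the replicate number as a block there were 61 lower and 7 higher, and with the pairing crossed 167 lower and 46 higher, added after seeing that same-numbered libraries deviated in opposite directions (correlation -0.15 across genes). The crossed pairing called 1 plasma cell gene. Leaving out 1 library at a time gave 0 to 385 lower genes, 0 to 563 higher, 0 to 5 lower in the plasma cell list, 0 to 2 in the class switch list, and -6.27 to -5.45 for the log2 ratio of the switched sum. Without KO 2 no gene was called, and without KO 1 all 27 remained. Apart from the genes taken out with the segments, the cause of these moves was not tested. Mzb1, never called, was at -0.02 with all libraries and changed sign with quantile normalization (0.042) and median centring (0.050). On leaving out single libraries it ran from -0.43 to 0.40. All 7 members kept their direction in the alternatives run on them, from -9.48 to -7.43 for Igha, -4.27 to -3.49 for Ighg2b and -1.76 to -0.14 for Ighe. Values below about 3 fragments, as for Ighg1, Ighg2c, Ighg3 and Ighe in KO, are limited by depth.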

Other observations

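Gapdh, a gene with many near-identical pseudogene copies, was listed at 4.20 and 4.91 FPKM in wild type and at 5.87 and 6.72 FPKM in KO, while Actb ranged from 1110.87 to 1649.50 FPKM. The labels do not state how reads with several matching places were counted, and the part of such counting in the Ighg2b and Ighg2c values was not tested.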
